A study of Homo sapiens with 2 samples.

Results

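The long arm of human chromosome 4 (4q) was taken as the stretch from 50.4 Mb to the end of the chromosome at 191.15 Mb on the genome build hg19. Its members were all ATAC-seq peaks whose summit, the highest base of the peak, lay in that stretch. There were 945 such peaks among 25189 in the Jurkat list and 1220 among 24603 in the RPMI-8402 list, counted over chromosomes 1 to 22, X and Y. The arm was picked from these same lists, because chromosome 4 had the highest ratio of RPMI-8402 to Jurkat peaks of all autosomes. The contrast between the lines on 4q is therefore a description throughout, and no value of it was tested.

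ATAC-seq marks open chromatin with the Tn5 transposase, which inserts sequencing adapters where DNA is not wrapped tightly around nucleosomes, mostly at active promoters and enhancers. Fragments pile up at such sites, and a peak caller reports a peak where the pileup stands above the local background. The background is read from the neighbourhood of the peak, so it can move with a difference in coverage that spans a whole region. Whether a difference in background reflects a whole region or the peak itself was not tested. The long arm of chromosome 4 carries long gene-poor stretches between gene clusters. Genes known in lymphoid cells lie along it, among them LEF1, a transcription factor of early T cells, TET2, an enzyme that oxidises methylated DNA, and IL2, the T-cell growth factor.

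Jurkat and RPMI-8402 are established human cell lines from T-cell acute lymphoblastic leukaemia, a cancer of immature T cells. Both were grown in RPMI-1640 medium with tetracycline-free serum, and the labels name no treatment or genetic change in either. Each line was represented by 1 library of paired-end 150-bp reads and by 1 list of called peaks. There was thus no replicate, no spread between cultures and no test. Intervals given for counts, shares and ratios are exact 95% intervals that cover counting error only, and copies made by PCR would make them too narrow. The labelled cell type was not checked against marker genes, because no annotation of the build was used.

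Over chromosomes 1 to 22, X and Y both libraries gave peaks of like height, with a median summit pileup of 37 fragments in Jurkat and 38 in RPMI-8402. Jurkat peaks had a median width of 611 bp and RPMI-8402 peaks of 694 bp. The lowest background in the Jurkat list was 1.59 fragments per base and that in the RPMI-8402 list 1.96. Summit pileups and backgrounds were solved from the deposited fold enrichments and p-values and were whole numbers for 100% of the pileups.

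On 4q the RPMI-8402 list was the longer one, with 1.29 peaks for each Jurkat peak (95% interval 1.18 to 1.41). This came to 8.67 peaks per Mb in RPMI-8402 and 6.71 in Jurkat. The peaks covered 869 kb in RPMI-8402 and 588 kb in Jurkat. The rest of chromosome 4, its short arm and centromeric part below 50.4 Mb, went the other way, with 396 Jurkat and 334 RPMI-8402 peaks and a ratio of 0.843 (0.727 to 0.978). The other autosomes together gave 0.956 (0.938 to 0.974). Within chromosome 4 the surplus of RPMI-8402 peaks therefore lay on the long arm.

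Both lines had peaks of below-average height on 4q. In Jurkat the summit pileup ranged from 9 to 714 fragments on 4q, with a median of 28 against 37 on the other autosomes. RPMI-8402 spanned 10 to 667 fragments, with a median of 31 against 38. Peaks were also spaced more widely than on the other autosomes. Neighbouring summits on 4q lay a median of 79.7 kb apart in Jurkat and 67.2 kb in RPMI-8402, against 45.4 and 52.7 kb on the other autosomes. The longest gap without a Jurkat peak measured 1.48 Mb, from 91184854 to 92667884, and the longest without a RPMI-8402 peak measured 1.22 Mb, from 117280063 to 118499002.

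The interval had no peaks near its lower end. The last Jurkat peak below it was at 49563151 to 49563455, with a pileup of 15, and the first inside it at 52708771 to 52709624, with a pileup of 316. In RPMI-8402 the last peak below was at 49637185 to 49637642, with a pileup of 68, and the first inside at 52663777 to 52664261, with a pileup of 43. At the chromosome's end the last peaks were at 191041458 to 191041904 in Jurkat and at 191043926 to 191044259 in RPMI-8402. Neither of these last peaks overlapped a peak of the other line. No peak crossed an end of the interval, since counting every peak with any base inside it gave the same 945 and 1220.

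The arm was divided into 29 bins of 5 Mb, numbered from the centromere, so that bin 1 starts at 50 Mb (its peaks from 50.4 Mb on) and bin 29 at 190 Mb. The bins held 11 to 59 Jurkat peaks and 15 to 78 RPMI-8402 peaks. More RPMI-8402 peaks were found in 21 bins, more Jurkat peaks in 6 and equal numbers in 2. The ratio ran from 0.868 in bin 24 (165 to 170 Mb) to 2.36 in bin 9 (90 to 95 Mb). All 11 bins from 60 to 115 Mb had more RPMI-8402 peaks, and these bins held 214 of the 275 additional RPMI-8402 peaks of the arm (77.8%). Taken bin by bin, the 95% interval of the ratio lay above 1 in 5 of the 29 bins (bins 5, 7, 8, 9 and 27). It lay below 1 in no bin, and in the other bins, most of those from 60 to 115 Mb among them, it included 1.

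**Figure D1:**
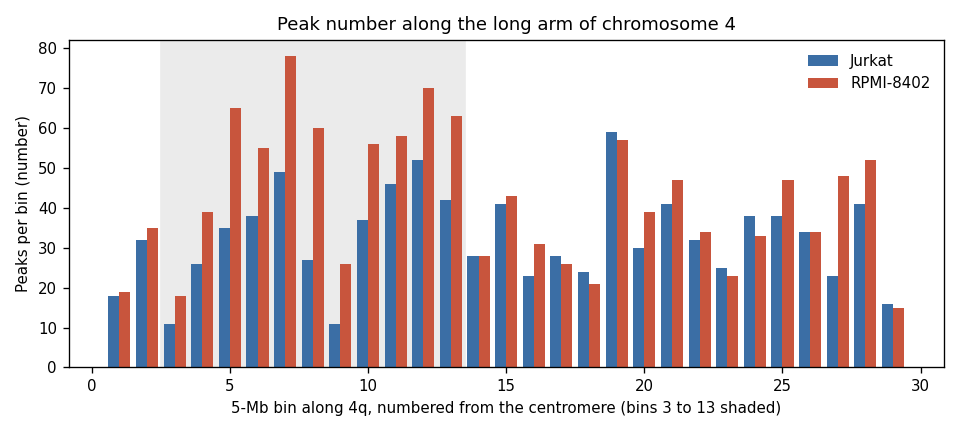
Number of peaks in each 5-Mb bin of 4q (x axis, bin number from the centromere) in Jurkat and RPMI-8402, 1 library each, with bins 3 to 13 (60 to 115 Mb) shaded. RPMI-8402 bars are the taller ones in all 11 shaded bins and again in bin 27, where 48 RPMI-8402 peaks stand beside 23 Jurkat peaks.

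From these values, 5 stretches were set after the bins had been seen: 50.4 to 60 Mb, 60 to 115 Mb, 115 to 180 Mb, 180 to 185 Mb and 185 to 191.15 Mb. Genes are named below only to show what lies in a bin. Their places come from general knowledge of the human map, no peak was assigned to a gene, and whether a peak lies in an exon, an intron or a UTR was not analysed here. All 50 genes considered lie on chromosome 4 in the RefSeq table of GRCh38.p14, in the same order as the bins.

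The first stretch, 50.4 to 60 Mb, was nearly balanced, with 50 Jurkat and 54 RPMI-8402 peaks. Its second bin carries the receptor tyrosine kinase genes PDGFRA, KIT and KDR, which act in mesenchymal, blood stem and endothelial cells, and REST, a repressor of neuronal genes. That bin held 32 Jurkat and 35 RPMI-8402 peaks. The next stretch looked different from its first bin on.

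Between 60 and 115 Mb there were 374 Jurkat and 588 RPMI-8402 peaks, a ratio of 1.57 (1.38 to 1.79). Bin 3, at 60 to 65 Mb, with the adhesion receptor gene ADGRL3, was sparse in both lines, with 11 Jurkat and 18 RPMI-8402 peaks. Bin 4 carries EPHA5, an ephrin receptor of neurons, and STAP1, an adaptor protein of lymphocytes, and held 26 and 39. Bin 5 carries DCK, which phosphorylates deoxynucleosides, the liver gene ALB and the chemokine gene CXCL8. It held 35 Jurkat and 65 RPMI-8402 peaks, a ratio of 1.86 (1.21 to 2.89).

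Bin 6, with the chemokine genes CXCL10 and CXCL13 and the cyclin gene CCNG2, held 38 Jurkat and 55 RPMI-8402 peaks. Bin 7, with the growth factor gene FGF5, the exchange factor gene RASGEF1B and HNRNPD, which binds unstable mRNAs, had the most RPMI-8402 peaks of the arm, 78 against 49. Bin 8, at 85 to 90 Mb, held 27 Jurkat and 60 RPMI-8402 peaks, a ratio of 2.22 (1.39 to 3.64). It carries MAPK10, a stress-activated kinase, PTPN13, a tyrosine phosphatase, and AFF1, a transcription elongation factor known as a fusion partner in leukaemia. The difference of 33 peaks in bin 8 was the largest of any bin on 4q.

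Bin 9 was sparse, with 11 Jurkat and 26 RPMI-8402 peaks. In bin 10, with the BMP receptor gene BMPR1B and the netrin receptor gene UNC5C, the numbers were 37 and 56. Bin 11 carries BANK1, a scaffold of B-cell signalling, NFKB1, a subunit of the transcription factor NF-kappaB, and CENPE, a kinetochore motor, and held 46 and 58. Bin 12, with TET2 and LEF1, held 52 and 70. Bin 13, with the apoptosis protease gene CASP6 and the membrane adaptor gene ANK2, held 42 and 63. The ratios of bins 11 and 12, 1.26 and 1.35, were below those of bins 8 and 9.

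From 115 to 180 Mb the lines had nearly equal numbers, 441 Jurkat and 463 RPMI-8402 peaks, a ratio of 1.05 (0.92 to 1.2). Of its 13 bins, 6 had more RPMI-8402 peaks, 5 more Jurkat peaks and 2 the same number, and no bin differed by more than 9 peaks. Bin 15, with the cell-cycle genes MAD2L1 and CCNA2 and the cytokine genes IL2 and IL21, held 41 Jurkat and 43 RPMI-8402 peaks. Bin 19, with MAML3, a coactivator of Notch, the cytokine gene IL15, the phosphatase gene INPP4B and the chromatin remodeller gene SMARCA5, was the richest bin for Jurkat, with 59 peaks against 57. Bin 21, with LRBA, a vesicle trafficking gene, FBXW7, a ubiquitin ligase subunit that is often mutated in T-cell leukaemia, and the innate receptor gene TLR2, held 41 and 47.

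The fourth stretch was a single bin. At 180 to 185 Mb (bin 27) there were 23 Jurkat and 48 RPMI-8402 peaks, a ratio of 2.09 (1.24 to 3.59). The bins on either side had lower ratios, with 34 peaks in each line in bin 26 and with 41 and 52, a ratio of 1.27, in bin 28. Bin 28 carries IRF2, an interferon regulatory factor, and FAT1, a large cadherin. The last stretch, 185 to 191.15 Mb, held 57 Jurkat and 67 RPMI-8402 peaks in all.

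Peaks were next asked whether they overlapped a peak of the other line by at least 1 bp. Of the Jurkat peaks on 4q, 584 did (61.8%, 58.6 to 64.9%), and of the RPMI-8402 peaks 573 (47.0%, 44.1 to 49.8%). This left 361 peaks called in Jurkat only and 647 called in RPMI-8402 only. Over all chromosomes, 31.9% of RPMI-8402 peaks and 32.6% of Jurkat peaks had no partner. The arm was chosen for its excess of RPMI-8402 peaks, so nothing is read from the higher share without a partner on 4q. On the other autosomes 69.8% of RPMI-8402 and 67.6% of Jurkat peaks had a partner, and on the rest of chromosome 4 69.2% and 60.4%.

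Line-only peaks were low and narrow, on 4q as on the other autosomes. On 4q their median pileup was 22 in RPMI-8402 and 17 in Jurkat, against 70 and 51 for peaks with a partner. Their median width there was 484 bp in RPMI-8402 and 384 bp in Jurkat, against 852 and 678 bp. On the other autosomes line-only peaks had a median pileup of 21 in RPMI-8402 and 19 in Jurkat, and a median width of 493 and 401 bp. At such heights a missing partner and one just under the calling threshold could not be told apart.

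**Figure D2:**
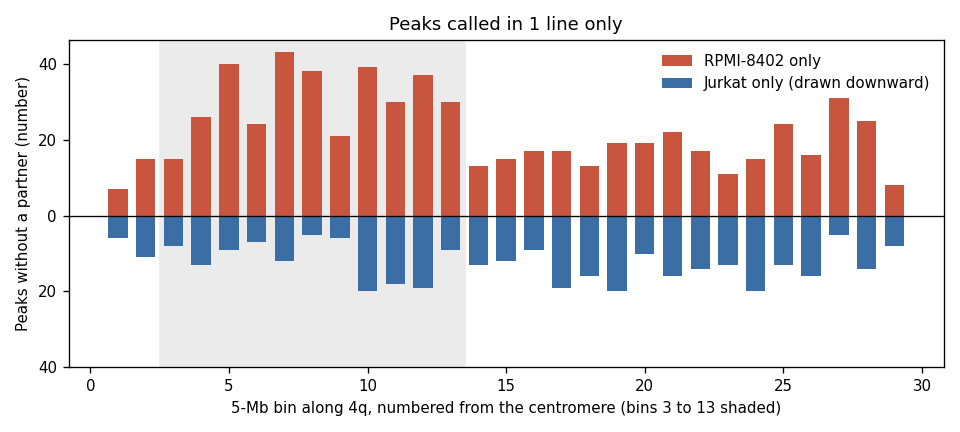
Number of peaks without a partner in the other line in each 5-Mb bin of 4q (x axis, bin number from the centromere), RPMI-8402 drawn upward and Jurkat downward, with bins 3 to 13 shaded. RPMI-8402-only peaks number 15 to 43 per shaded bin and Jurkat-only peaks 5 to 20.

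The numbers of line-only peaks restate the contrast in peak number wherever shared peaks are about as many in both lists, as they were between 60 and 115 Mb (248 Jurkat and 245 RPMI-8402 peaks). Between 60 and 115 Mb, 343 RPMI-8402 peaks and 126 Jurkat peaks had no partner, and the shares with a partner were 41.7% in RPMI-8402 and 66.3% in Jurkat. From 115 to 180 Mb the numbers without a partner were 218 and 191, and the shares 52.9% and 56.7%. The Jurkat share was the higher one in 22 of 29 bins, the RPMI-8402 share in 5, and both were equal in 2. By bin, the share of RPMI-8402 peaks with a partner ran from 16.7% in bin 3 to 66.7% in bin 19, and that of Jurkat peaks from 27.3% in bin 3 to 81.6% in bin 6. The sparse bin 3 thus had the lowest share in both lines.

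Shares were also split by the strength of the peaks. They hold the same contrast by which the arm was chosen, so the values below are a description and nothing is read from them. Each whole list was cut into 10 equal classes of rising −log10 q-value, as the authors deposited it. In RPMI-8402 the share on 4q was below that of the other autosomes in all 10 classes, with differences from −32.5 to −0.71 percentage points. In the sixth class, with a median pileup of 40, it was 45.9% (36.3 to 55.7%) on 4q and 78.4% on the other autosomes. In Jurkat the share on 4q was below in 5 of 10 classes. With the class shares of the other autosomes, 66.2% of the RPMI-8402 peaks on 4q would have had a partner, where 47.0% did, and 63.0% of the Jurkat peaks, where 61.8% did. The RPMI-8402 share outside 60 to 115 Mb was 51.9%, where the class shares gave 66.7%.

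**Figure D3:**
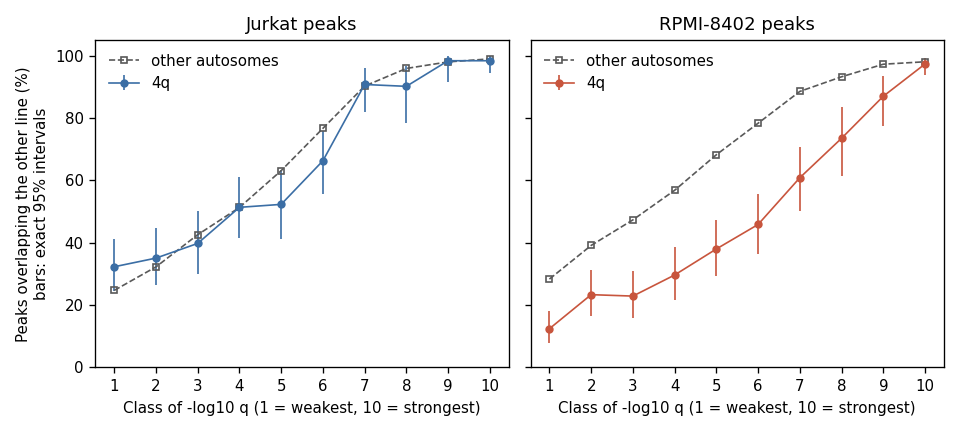
Share of peaks overlapping a peak of the other line (y axis, percent, bars are exact 95% intervals) by class of −log10 q-value (x axis, class 1 weakest and class 10 strongest) on 4q and on the other autosomes, Jurkat on the left and RPMI-8402 on the right. The 4q points of RPMI-8402 lie under the line of the other autosomes in every class, from 12.4% against 28.4% in class 1 to 97.4% against 98.1% in class 10.

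The strongest line-only peaks were found by ranking on −log10 q-value. The first 10 RPMI-8402-only peaks on 4q had pileups of 81 to 224 and fold enrichments of 9.82 to 16.7, and 9 of them lay between 60 and 115 Mb. That stretch held 343 of the 647 RPMI-8402-only peaks of the arm. Each of the first 10 lay at least 43428 bp from the nearest Jurkat peak. The second of them, at chromosome 4, 62065724 to 62067316, had a pileup of 198 (171 to 228) over 1593 bp, in the sparse bin 3, with no Jurkat peak within 445931 bp. The third, at 87515045 to 87516488, had a pileup of 154 (131 to 180) and lay 108887 bp from a Jurkat peak. The one outside the stretch, at 59320217 to 59320768, had a pileup of 81 and lay 553875 bp from a Jurkat peak, just below the 60 Mb boundary.

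Some of these peaks lay close to one another. Those at 70849783 to 70850435 (pileup 88) and at 70866161 to 70866976 (pileup 92) were both in bin 5. The fifth peak by rank, at 86717928 to 86718288, was only 361 bp wide but reached a fold enrichment of 16.7 and a pileup of 87.

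The first 10 Jurkat-only peaks had pileups of 66 to 168 and were scattered. Of them, 2 lay between 60 and 115 Mb, where 126 of the 361 Jurkat-only peaks of the arm lay. Of these 10, 5 had a RPMI-8402 peak within 10 kb, while each of the 10 RPMI-8402-only peaks lay at least 43428 bp from a Jurkat peak. RPMI-8402 peaks were denser on 4q (8.67 against 6.71 per Mb), and the share over all line-only peaks was not computed. Nothing is therefore read from this difference. The first Jurkat-only peak, at 123866127 to 123866944, had a pileup of 168 (144 to 195), with the nearest RPMI-8402 peak 21474 bp away. The second, at 147271193 to 147271819, had a pileup of 103 and the highest fold enrichment of the named line-only peaks, 22.2. The third, at 132896354 to 132897807, had a pileup of 109 and stood farthest from a RPMI-8402 peak, 164464 bp. The ninth, at 109293890 to 109294468 in the bin of LEF1 and TET2, had a RPMI-8402 peak 1611 bp away. Line-only peaks with a pileup of at least 50 numbered 57 in RPMI-8402 and 14 in Jurkat on 4q, of 579 and 429 on all chromosomes.

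Line-only regions also followed one another in runs. In the merged lists 4q held 20 runs of at least 5 consecutive RPMI-8402-only regions, with 127 regions, and 2 such runs of Jurkat-only regions, with 12. Over chromosomes 1 to 22, X and Y there were 138 such RPMI-8402 runs and 85 Jurkat runs. Runs hold the same contrast by which the arm was chosen, so nothing is read from their number on 4q. Of the 20 on 4q, 17 began between 60 and 115 Mb, where 343 of the 647 RPMI-8402-only peaks of the arm lay. The longest ran from 85976069 to 86764103 in bin 8, with 11 RPMI-8402-only regions over 0.788 Mb and pileups of 14 to 87. Its last 2 peaks were the tallest, at 86717928 to 86718288 (pileup 87) and 86763490 to 86764103 (pileup 78). Its members ranged from weak to strong calls, with fold enrichments from 3.63 to 16.7.

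The next longest RPMI-8402 runs had 9 regions each. One ran from 74472072 to 74749264, in the bin of the chemokine gene CXCL8, with pileups of 12 to 70. The other ran from 101621517 to 101959571 in bin 11, with pileups of 15 to 59. In Jurkat the longest run was at 157997097 to 158276634, with 7 regions and pileups of 15 to 70, and the next at 132380704 to 132672685, with 5. Both Jurkat runs lay in the stretch from 115 to 180 Mb. The third longest Jurkat run, at 55099378 to 55401138 in the bin of PDGFRA and KIT, had 4 regions with pileups of 23 to 43.

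Where 1 Jurkat peak overlapped exactly 1 RPMI-8402 peak, the pair allowed a comparison at the same site. There were 562 such pairs on 4q, of 16494 in all, and 22 Jurkat and 11 RPMI-8402 peaks with a partner belonged to no such pair. Ratios are given as log2 of RPMI-8402 over Jurkat, centred on the median of all 16494 pairs, so that 0 stands for the median pair of the genome. The paired peaks of 4q had a median of 50.5 fragments at the summit in Jurkat and of 67.5 in RPMI-8402, a median fold enrichment of 9.44 and 9.11, and a median width of 678.5 and 839.5 bp. In these unscaled values RPMI-8402 had the taller and wider peaks at shared sites of 4q, with a fold enrichment close to that of Jurkat.

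In the centred ratios, the median for pileup was 0.40, with quartiles of −0.04 and 0.97, and 408 of 562 pairs (72.6%) were above 0, as were 49.9% of all pairs. This sign depended on the scaling, since the median was 0.23 without centring and −0.07 when each pileup was divided by the lowest background of its library, a scaling under which the median of all pairs was −0.47. The median width ratio was 0.13 (quartiles −0.08 and 0.45), and 0.18 without centring. For the fold enrichment the median was 0.10 (quartiles −0.13 and 0.37) after centring and −0.15 without it. The local background had a median ratio of 0.34 (quartiles −0.04 and 0.79). On the rest of chromosome 4, with 224 pairs, the centred medians were −0.06 for pileup, 0.01 for fold enrichment and −0.01 for width.

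Pairs with a large difference leaned the same way. A pileup at least 2-fold higher in RPMI-8402 after centring was seen in 135 pairs of 4q (24.0%), where 9.21% of all pairs passed that size. At least 2-fold higher in Jurkat were 14 pairs (2.49%), against 4.89% of all. For the fold enrichment, 85 pairs (15.1%) were at least 1.5-fold higher in RPMI-8402, against 7.51%, and 19 (3.38%) in Jurkat, against 3.16%. For the width, 106 pairs (18.9%) were at least 1.5-fold wider in RPMI-8402, against 11.4%, and 17 (3.02%) in Jurkat, against 5.86%. These counts share the contrast by which the arm was chosen and are set beside the genome's shares as a description.

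**Figure D4:**
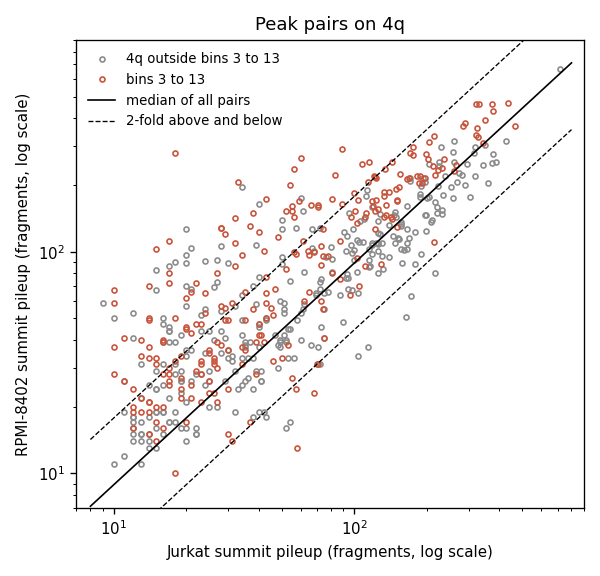
Summit pileup of the 562 peak pairs of 4q in Jurkat (x axis) and RPMI-8402 (y axis), in fragments on log scales, with pairs of bins 3 to 13 in red and the others in grey. The solid line marks the median ratio of all 16494 pairs and the dashed lines 2-fold above and below it. Red points gather above the solid line (212 of 242), and 80 of them reach the upper dashed line or pass it.

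Along the arm, the pileup ratio followed the map of peak numbers in part. A median was taken in the 28 bins with at least 5 pairs, and it was above 0 in 24 of them. It reached 0.5 in 10 of 28 bins of 4q, where 6.32% of the 570 bins of the genome did. Scaled by the lowest backgrounds, which lowered the median of all pairs to −0.47, the bin median was above 0 in 11 of the 28 bins and reached 0.5 in 1, bin 8, where 44 and 2 of the 570 bins did. Bin 9, inside the stretch from 60 to 115 Mb, was then at −0.23. The stretches were set after the bins had been seen, so nothing is read from the sign of their medians. Between 60 and 115 Mb the median over 242 pairs was 0.65 (quartiles 0.28 and 1.25), with 212 pairs (87.6%) above 0. The median there was 0.18 when scaled by the lowest backgrounds. From 115 to 180 Mb it was 0.17 over 240 pairs and −0.30 by lowest background. At 50.4 to 60 Mb it was 0.21 (−0.26 by lowest background) and at 185 to 191.15 Mb 0.07 (−0.40). Across the 28 bins, which share both libraries and their depth, this median tracked the log2 peak number ratio with a Pearson correlation of 0.74 and a Spearman correlation of 0.76. Yet bin 9, with the highest peak number ratio (2.36), had a centred median of 0.24 over 5 pairs. Bin 24, with the lowest (0.868), had 0.41 over 18 pairs.

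The local background moved with the pileup, on 4q as on the other autosomes. Over single pairs, their log2 ratios had a Pearson correlation of 0.89 on 4q and of 0.87 on the other autosomes. Each background was solved from the pileup and the fold enrichment of the same peak. The ratios of pileup and background are thus tied by calculation, and nothing is read from their correlations. Between 60 and 115 Mb the median centred ratio of the background was 0.62, near the 0.65 of the pileup, while the fold enrichment had 0.11. From 115 to 180 Mb the background had 0.14 and the fold enrichment 0.08. Over the 28 bins the medians of pileup and background had a Pearson correlation of 0.91 and a Spearman correlation of 0.84, as values that come from the same peaks and are tied in this way. The share of peaks called against the library's lowest background also differed by stretch, being 22.7% in Jurkat and 6.46% in RPMI-8402 at 60 to 115 Mb but 16.1% and 15.3% at 115 to 180 Mb. The part of the background in the differences of pileup and of peak number was not tested.

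**Figure D5:**
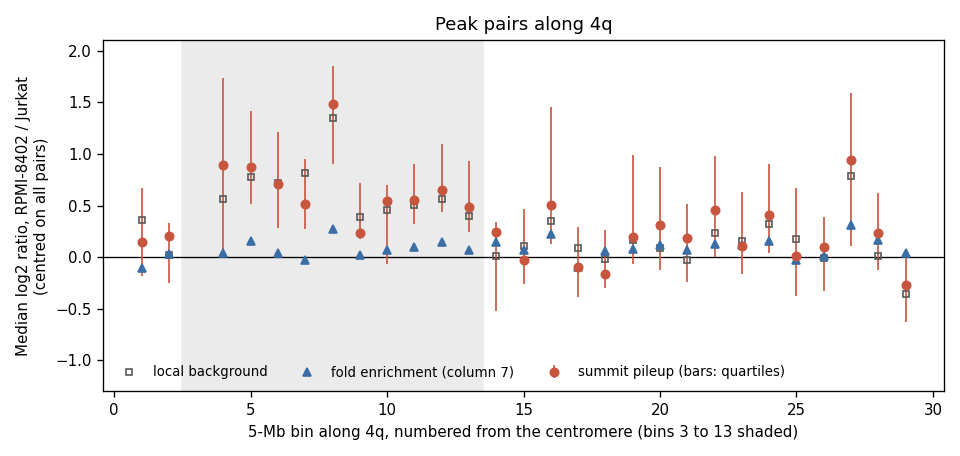
Median centred log2 ratio (RPMI-8402 over Jurkat, y axis) of summit pileup, local background and fold enrichment over the peak pairs of each 5-Mb bin of 4q (x axis, bin number from the centromere). Bars are the quartiles over pairs for pileup, bins 3 to 13 are shaded, and bin 3 has no point because it holds 3 pairs. Pileup and background reach 1.49 and 1.34 in bin 8, where the fold enrichment is at 0.27, and 0.94 and 0.79 in bin 27.

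A running median over 11 neighbouring pairs gave a finer map. The stretches were set after the bins of these same data had been seen, so nothing is read from their windows above 0. All 242 windows centred between 60 and 115 Mb had a centred median above 0, from 0.24 at 114.68 Mb to 1.79 at 87.41 Mb, and 205 of them stayed above 0 when scaled by the lowest backgrounds. From 115 to 180 Mb, 178 of 240 windows were above 0, with a range of −0.26 to 1.10. The lower boundary could not be placed closely, since no pair was found between 58.03 and 61.33 Mb. On the far side the neighbouring bins 13 and 14 had medians of 0.49 and 0.25, with lower quartiles of 0.24 and −0.52.

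The tallest median stood in bin 8, the bin of MAPK10, PTPN13 and AFF1. Its 22 pairs had pileups of 10 to 199 in Jurkat, with a median of 52, and of 27 to 290 in RPMI-8402, with a median of 137.5. RPMI-8402 was above the genome's median ratio in 20 pairs, at least 2-fold in 16 and at least 4-fold in 5. The pair at 88140939 to 88141929 in Jurkat had pileups of 89 in Jurkat and 290 in RPMI-8402, yet fold enrichments of 13.4 and 12.8. The exceptions, with more fragments in Jurkat, were at 85964833 to 85965522 (55 in Jurkat and 27 in RPMI-8402) and at 89618628 to 89619419 (50 and 33). Over the 22 pairs of this bin the fold enrichment had a median ratio of 0.27 after centring and of 0.03 without it. Its centred ratio was above 0 in 16 pairs. It was at least 1.5-fold higher in RPMI-8402 for 6 pairs and in Jurkat for 1. The local background had a median centred ratio of 1.34, with 21 pairs above 0. What either contributed to the taller summits was not tested.

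In bin 3 only 3 pairs were found, with Jurkat pileups of 10, 13 and 29 and RPMI-8402 pileups of 28, 34 and 56. All 3 were at least 2-fold higher in RPMI-8402 after centring. Bin 27, the isolated bin at 180 to 185 Mb, had 16 pairs with a median ratio of 0.94 (quartiles 0.10 and 1.59), and 0.47 when scaled by the lowest backgrounds. Its pairs did not all go 1 way. The pair at 184019909 to 184020903 in Jurkat had pileups of 28 in Jurkat and 106 in RPMI-8402, while that at 184365130 to 184366388 had 221 and 149. Of the 16, 12 were above 0 and 8 at least 2-fold higher in RPMI-8402.

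The ratio was also read by the height of the sites. All pairs of the genome were put into 3 levels by their mean height over both lines. On the other autosomes the median centred pileup ratio was 0.17 in the low level, −0.04 in the middle and −0.16 in the high one. From 115 to 180 Mb it followed the same order, with 0.38, 0.14 and −0.03. Between 60 and 115 Mb it was 0.70, 0.87 and 0.57, without that order, and the high level there had median pileups of 129 in Jurkat and 186 in RPMI-8402. Whether the levels differed between the stretches was not tested.

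Single pairs reached much larger ratios. The largest on 4q was at 87813084 to 87813774 in Jurkat, in bin 8, where 18 Jurkat and 280 RPMI-8402 fragments covered the summit. After centring this was a 17.5-fold difference (10.9 to 30.0), with fold enrichments of 7.15 and 14.3, and the background differed as well, at 1.66 and 18.7 fragments per base. At 102024682 to 102025006 the pileups were 15 and 103, a centred ratio of 7.72 (4.47 to 14.3), and at 89744253 to 89744947 they were 33 and 207, a ratio of 7.06 (4.87 to 10.5). The pairs leaning most to either line were picked for their ratios among the 562, a choice that the intervals do not allow for. The 10 largest by pileup towards RPMI-8402 had only 9 to 34 fragments in Jurkat. Of these 10 largest, 6 lay between 60 and 115 Mb, the stretch with 242 of the 562 pairs of 4q. Those outside it included 127568856 to 127569226, with 9 Jurkat and 59 RPMI-8402 fragments, which also had the largest ratio of fold enrichment towards RPMI-8402, with 3.84 in Jurkat and 11.2 in RPMI-8402.

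The 10 pairs that leaned most to Jurkat had smaller ratios. The first was at 99209473 to 99210046, with 58 fragments in Jurkat and 13 in RPMI-8402, a centred ratio of 3.97 in favour of Jurkat (2.15 to 7.89). At 178288300 to 178289000 the pileups were 164 and 51, and at 123499549 to 123500213, in the bin of IL2 and IL21, they were 216 and 80. Of these 10, 2 lay between 60 and 115 Mb, the stretch with 242 of the 562 pairs of 4q. By fold enrichment the leading Jurkat pair was at 77870583 to 77871638, in the bin of CCNG2, with 11.8 in Jurkat and 4.46 in RPMI-8402. Pileup and fold enrichment named 5 pairs in common among the 10 of each in either direction.

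Shared sites were ranked by the lower −log10 q-value of the pair. The first was at 190970493 to 190971130 near the end of the arm, with pileups of 714 in Jurkat and 667 in RPMI-8402. The other 4 all lay between 60 and 115 Mb, where 242 of the 562 pairs of 4q lay. These 4 had 323 to 379 fragments in Jurkat and 363 to 463 in RPMI-8402. That at 103789794 to 103790785 had 379 and 432, with widths of 992 and 1006 bp. That at 108640888 to 108641909 had 331 and 463, a centred ratio of 1.57 (1.36 to 1.82), while its fold enrichment was 16.7 in Jurkat and 11.1 in RPMI-8402. These 4 pairs had centred ratios of 1.26 to 1.57, and the pair near the end of the arm had 1.05 (0.944 to 1.17).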

How the data were processed

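ATAC-seq of 1 Jurkat and 1 RPMI-8402 library was deposited as a narrowPeak list per library. Per the submitters' processing notes, Bowtie2, Picard, SAMtools and MACS2 2.1.1.2016030 were used with the build hg19, with no role or order stated. Read filters, duplicate removal and the Tn5 offset were not given in the sources used here. For each peak the authors deposited a fold enrichment, a ratio over local background. The deposited −log10 p-values and −log10 q-values are the authors' own, and the deposited score is 10 times the former, truncated. Each list belongs to 1 library, so nothing was pooled.

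No source used here gives library totals, so depth is seen only through the solved pileups and backgrounds. The lowest background was 1.59 for 2327 Jurkat peaks and 1.96 for 2395 RPMI-8402 peaks. Scaling by it was used as an alternative to centring, and how far it reflects depth was not tested. Pileup and background were solved from fold, (pileup + 1)/(background + 1), and p, a Poisson upper tail, which is how MACS2 is known to compute them. The solved pileups were whole, within a tolerance of 0.01, in 100% of peaks. Both the fold enrichments and the p-values depend on depth and fragment length, and the narrowest peaks were 261 bp in Jurkat and 309 bp in RPMI-8402. The 8 Jurkat and 4 RPMI-8402 mitochondrial peaks were left out, and no list of artefact-prone regions was applied.

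Overlaps, pairs, bins and runs were computed in Python 3.11.15 with numpy 2.4.6, pandas 2.3.3 and scipy 1.17.1. Overlap counts on 4q were the same in bedtools 2.31.1. Shares have Clopper-Pearson intervals, pileups exact Poisson intervals and ratios exact conditional binomial intervals. A median was taken only in bins with at least 5 pairs. On simulated data, the pileups of 100% of 25189 and 24603 peaks and all 500 planted overlaps were recovered, which checks the solving and not the formula.

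Regions named were the 10 line-only peaks per line with the highest −log10 q-value, the 10 pairs per direction with the largest ratio of pileup and of fold enrichment, the 5 strongest shared pairs, the 3 longest runs per line and every bin; some of them are not reported here. Other pairs of bins 3, 8 and 27 were named after their values were seen. The members, lists and stretches were chosen with earlier results of these data known. Genes, promoters, motifs and sequences were not analysed here, because no genome of the build was used.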

Additional observations from a re-analysis of the deposited data

How the results depend on the processing

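No value rests on a test, and leaving out a replicate was not possible with 1 library per line. No paired analysis was possible because neither line has a second library. Over all alternatives 52 values stayed within their error or within 1.5 times the count, 30 moved further and 2 changed sign. The ratio of peak numbers stayed between 1.2 and 1.37 unless 60 to 115 Mb was left out. Why values moved was not tested, beyond the fewer peaks that stricter thresholds leave. Depth limits the peaks near the calling threshold, at pileups of about 10, and gene windows and motifs could not be run without a genome of the build.

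With −log10 q of at least 10, 629 Jurkat peaks remained, the shares with a partner were 71.2% in Jurkat and 52.4% in RPMI-8402, there were 13 RPMI-8402-only runs, and 6 pairs were at least 2-fold higher in Jurkat. The 10000 strongest peaks of each list gave 312 and 427 peaks, shares of 85.9% and 62.1%, a median fold ratio of 0.060, and 41 and 3 pairs past 2-fold in RPMI-8402 and Jurkat. An overlap of 50% of both peaks gave shares of 53.5% and 41.5%. Without centring, the median ratios were −0.15 for fold enrichment, which changed sign, 0.23 for pileup and 0.18 for width, with 22 pairs past 2-fold in Jurkat. Scaling by the lowest background gave −0.074 for pileup, which changed sign, and 78 and 35 pairs past 2-fold. With fold enrichment in place of pileup, 23 and 2 pairs passed 2-fold. Leaving out 65 to 90 Mb gave a pileup ratio of 0.30. Leaving out 60 to 115 Mb, added like the uncentred width after seeing the data, gave 571 and 632 peaks, a ratio of 1.11, a RPMI-8402 share of 51.9%, a width ratio of 0.070, a pileup ratio of 0.19, and 55 and 9 pairs past 2-fold. Bins of 2 and 10 Mb, or moved by 2.5 Mb, placed the highest median pileup ratio at the bins starting at 86, 60 and 62.5 Mb, with 1.69, 0.94 and 1.66, where bins of 5 Mb placed it at 85 Mb.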

Other observations

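Summits of paired peaks lay close together on 4q, a median of 61 bp apart, against 67 bp on the other autosomes. Between 60 and 115 Mb the median distance was 53.5 bp, and from 115 to 180 Mb it was 66 bp. Pileups of the 562 pairs had a Pearson correlation of 0.81 on the log2 scale between the lines on 4q and of 0.81 over 15162 pairs of the other autosomes. For the fold enrichment the correlations were 0.71 and 0.78, and for the width 0.73 and 0.69. These describe sites within the same pair of libraries, which share their depth.

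Around the longest RPMI-8402-only run, the 1 Mb below it held 8 RPMI-8402 peaks, of which 4 had a Jurkat partner, and the 1 Mb above it 8, of which 2 had. Around the longest Jurkat-only run the numbers were 5 peaks with 4 partners below and 3 with 2 above. On 4q, 17.9% of Jurkat peaks and 10.4% of RPMI-8402 peaks were called against the lowest background of their library, where 8.55% and 9.59% of those of the other autosomes were.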
